A study of Drosophila melanogaster with 24 samples.

Results

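The cytochrome P450 family of Drosophila melanogaster was followed through 24 Affymetrix arrays of adult whole females, 1 array for each of 24 fly lines. Members were the probe sets whose platform annotation names a single gene with a current symbol that starts with Cyp and a digit. This gave 87 probe sets for 83 genes, out of 13966 probe sets on the array once its own controls were set aside. Cyp1 and Cyp40 met the symbol rule but are cyclophilins, protein-folding isomerases that are unrelated to P450s, so they were left out of every count below. Cyp1 stayed between 13.26 and 13.52 and Cyp40 between 7.21 and 7.67 on the 24 arrays, with no call. The family then comprised 85 probe sets for 81 genes.

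The lines formed 8 groups of 3. An unselected control stood beside lines selected for resistance to heat, to cold, to starvation, to desiccation or to knock-down, beside lines selected for longevity, and beside lines named constant 30, which the labels describe as kept at 30 degrees. The labels call the 3 lines of a group biological replicates, so the p-values below measure the spread between lines. The RNA came from 10 females homogenised per vial, with 5 micrograms of total RNA primed with oligo-dT. The sources used here do not give the strain, the age of the females, the number of generations of selection or the kind of knock-down.

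P450s are haem-containing monooxygenases that insert an oxygen atom into small lipophilic molecules. Most sit in the endoplasmic reticulum and take electrons from the reductase Cpr, whereas those of the mitochondrial clan take them from ferredoxins. Some have fixed tasks in the insect's own metabolism, such as making and degrading the moulting hormone ecdysone or producing the hydrocarbons that waterproof the cuticle, a coat that limits water loss. Others, above all in the CYP3 and CYP4 clans, are known for clearing plant toxins and insecticides in the gut, fat body and Malpighian tubules, and many are induced by such compounds.

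All values are the authors' deposited log2 values, on which a difference of 1 is a 2-fold difference. Array medians lay between 5.46 and 5.57, and an array had 8544 to 9071 probe sets with a value over 4. Probe sets over 4 on 3 or more of the 24 arrays were tested, which held for 9023 of them. Of 10 tested eggshell genes, markers of egg-laying females, the mean level was 10.85 to 12.67 across all arrays, while of 11 testis and accessory gland markers 1 passed the filter. Because the RNA is that of whole bodies, fewer cells of a type and less RNA per cell cannot be told apart. The number of arrays, 3 per group, limits the precision of every value.

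The filter was passed by 59 P450 probe sets, which stand for 58 of the 81 genes. In the CYP3 clan 31 of 37 genes were tested, in the CYP4 clan 19 of 32, in the mitochondrial clan 6 of 8 and in the CYP2 clan 2 of 4. The families differed in how many members passed. In the Cyp6 family, the largest of the CYP3 clan, 21 of 23 genes were tested and in the Cyp4 family 18 of 22, whereas in the Cyp313 family 1 of 6 genes was, Cyp313a1. The untested genes include members with described tasks. Cyp301a1, required for adult cuticle formation, stayed between 2.30 and 2.59 on the 24 arrays. Cyp303a1, needed for sensory bristles, stayed between 3.58 and 3.87. Cyp4d21, known as a gene of the male head, stayed between 3.45 and 3.86, and Cyp6g2, an insecticide-resistance gene when overexpressed, between 2.66 and 3.38. None of these values exceeded the filter, so no change was tested in them. The other untested genes were Cyp4ac2, Cyp4c3, Cyp4d14, Cyp6a16, Cyp28c1, Cyp28d2, Cyp49a1, Cyp304a1, Cyp308a1, Cyp309a2, Cyp311a1, Cyp312a1, Cyp313a2, Cyp313a3, Cyp313a4, Cyp313a5, Cyp313b1, Cyp316a1 and Cyp318a1. Of the tested members, 7 were not above 4 on every array: Cyp4d1 passed on 3 arrays, Cyp9b1 on 13, Cyp4ac3 and Cyp6a17 on 19, Cyp12e1 on 21, and Cyp6a14 and Cyp9h1 on 23.

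The comparison with the unselected control asked which P450 genes differ in each regime. A single member passed an adjusted p of 0.05 in the 7 comparisons, Cyp6a22 in heat selected lines, where it was lower. The share of all probe sets called in that comparison was 2.84% (256 of 9023), and 0.842% were called lower. No P450 probe set was called by limma in constant 30, cold, longevity, knock-down, starvation or desiccation selected lines. The background there was 0.155% in knock-down lines (14 probe sets), 0.0776% in desiccation lines (7 probe sets) and 0% in the other 4, so these comparisons called almost nothing anywhere on the array. No member was called when the mean of the 7 regimes was set against control (0% of all probe sets). An F test for any difference between the 8 groups also called no member, against 0.0554% of all probe sets. All 7 comparisons share the same 3 control lines.

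At an unadjusted p under 0.05, heat selected lines had 13 of 59 members, which is 22.0% against 20.5% of all tested probe sets. Longevity and desiccation lines had 8 members each (13.6%, against 7.95% and 7.17% of all). Knock-down lines had 7 (11.9% against 10.4%) and constant 30 lines 6 (10.2% against 6.98%). Cold and starvation lines had 4 each (6.78%, against 7.9% and 9.21%). The median log2 change over the 58 genes was 0.027 in heat, 0.024 in constant 30, cold and longevity, 0.011 in knock-down, -0.00046 in starvation and 0.060 in desiccation selected lines. Over all 7438 tested genes the medians ran from -0.025 to 0.0091. In desiccation selected lines 37 of 58 P450 genes lay above control (63.8%, against 44.8% of all tested genes), and in starvation selected lines 29 of 58 did, against 40.8% of all.

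**Figure D1:**
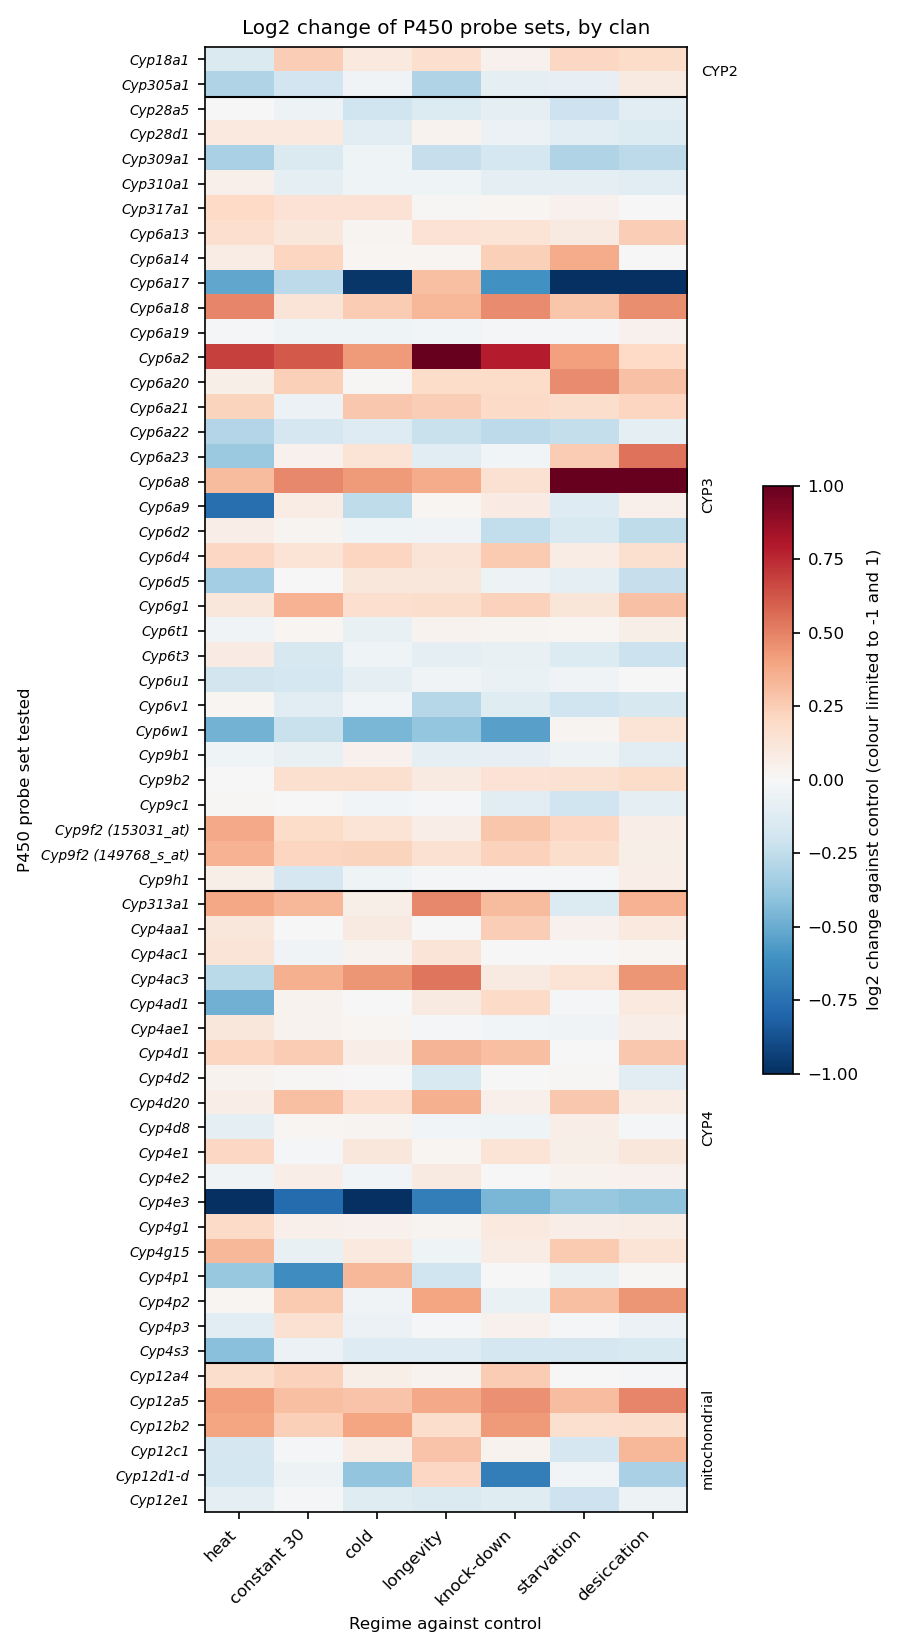
Log2 change of each of the 59 tested P450 probe sets (rows, grouped by clan) in each of the 7 regimes (columns) against the 3 control lines. Colour gives the difference of group means; most cells lie near 0, and the strongest colours belong to Cyp4e3, Cyp6a17, Cyp6a8 and Cyp6a2, of which none was called.

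Cyp6a22 had log2 values of 9.49, 9.57 and 9.47 in the 3 control lines and of 9.17, 9.23 and 9.27 in the 3 heat selected lines. Every heat selected line was thus below every control line. The difference was -0.29 ± 0.08 (SE, n = 3 lines per group, 95% interval -0.45 to -0.13, limma adjusted p = 0.0483). Values were 9.33, 9.18 and 9.23 in knock-down, 9.29, 9.27 and 9.26 in starvation and 9.36, 9.44 and 9.06 in longevity selected lines. They were 9.37, 9.39 and 9.28 in constant 30 lines, 9.45, 9.40 and 9.30 in cold and 9.47, 9.44 and 9.33 in desiccation selected lines. The 3 values lay below all control values in 6 regimes, with desiccation the exception, and all 21 selected lines were below the control mean. The differences in the other 6 regimes ran from -0.26 ± 0.08 (knock-down, adjusted p = 0.174) to -0.10 ± 0.08 (desiccation, adjusted p = 0.759), and the mean of the 7 regimes differed by -0.20 ± 0.06 (adjusted p = 0.170). The call in heat is close to its threshold. It was lost when control replicate 1 or 2 or heat selected replicate 1 or 2 was left out (adjusted p = 0.132 to 0.181). It was also lost in 13 of 18 omissions of an array of another group (0.0503 to 0.0606), and with RNA quality as a covariate (adjusted p = 0.292). The difference itself ran from -0.31 to -0.25 over the alternatives run.

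Other measures moved with the heat comparison. The mean level of 9 of 10 muscle genes was 9.11 to 10.00 in heat selected lines and 8.24 to 8.93 in control, and that of 10 of 11 eggshell genes 10.85 to 12.04 against 12.09 to 12.43. The 8 fat body genes, from an organ known to express many P450s, stood at 8.11 to 8.35 against 8.68 to 8.85. Of 7 Malpighian tubule genes the 4 tested ones stood at 6.64 to 6.81 against 5.99 to 6.53, and of 5 oenocyte genes the 4 tested ones at 9.33 to 9.43 against 8.68 to 9.23. The 9 of 11 midgut genes overlapped (10.65 to 11.17 against 10.95 to 11.20), as did 8 of 10 eye genes (7.13 to 7.63 against 6.59 to 7.23). The difference between 3' and 5' probe sets of the array's control genes, a measure of RNA integrity, was 1.34 to 1.68 in heat selected lines and 1.69 to 1.82 in control. Their part in the P450 results was not tested. A fit with RNA quality as a covariate was run, but that measure was apart between heat and control, so the fit cannot tell it from the regime.

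Direct tests between regimes, 21 pairs that do not use the control lines, called 1 member, Cyp4ac3, in 2 pairs. The share of all probe sets called between heat selected lines and another regime was 0.366% for constant 30, 0.0332% for cold, 4.2% for longevity, 0.0111% for knock-down, 1.46% for starvation and 2.45% for desiccation. Between desiccation selected lines and another regime it was 0.0332% for constant 30 and for cold and 0.0111% for longevity and for knock-down, and it was 0% in the other 11 pairs. Cyp4ac3 stood at 3.99, 3.83 and 3.92 in heat selected lines and at 4.85, 4.84 and 4.47 in longevity selected lines, and the groups did not overlap. The difference was -0.80 ± 0.15 (adjusted p = 0.0180, where 4.2% of all probe sets were called and 1.68% were called lower). In desiccation selected lines it stood at 4.63, 4.70 and 4.53, again above all heat selected lines, with a difference of -0.71 ± 0.15 (adjusted p = 0.0299, background 2.45%, lower 1.12%). The heat values lay at or under the filter of 4, near the low end of the scale, so the size of these differences is poorly set. Measures that moved with the longevity pair included RNA integrity (1.34 to 1.68 in heat against 1.81 to 1.93) and the muscle list (9.11 to 10.00 against 7.91 to 8.51). The fat body list (8.11 to 8.35 against 8.45 to 8.69) and the oenocyte list (9.33 to 9.43 against 8.69 to 9.10) also did not overlap. The eye, eggshell, midgut and Malpighian tubule lists overlapped in this pair. In the desiccation pair the fat body list (8.55 to 8.80 in desiccation selected lines) and the oenocyte list (8.91 to 9.25) did not overlap. The eye list was apart as well (7.13 to 7.63 in heat against 7.017 to 7.022 in desiccation selected lines). Muscle (8.64 to 9.46) and RNA integrity (1.67 to 1.82) overlapped, as did the eggshell, midgut and Malpighian tubule lists. Neither call remained with RNA quality as a covariate (adjusted p = 0.951 for longevity and 0.195 for desiccation). In the alternatives where a call was lost, the difference ran from -0.76 to -0.74 for longevity and from -0.75 to -0.67 for desiccation. RNA integrity was apart between heat and longevity selected lines, so that covariate cannot be told from the regime there. Cyp4ac3 was also at 4.64, 4.88 and 4.37 in cold selected lines and at 4.42, 4.49 and 4.70 in constant 30 lines. Heat against cold (-0.71, adjusted p = 0.121) and heat against constant 30 (-0.62, adjusted p = 0.0538) were not called.

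In control lines Cyp4ac3 stood at 3.98, 4.29 and 4.28. It thus overlapped with heat selected lines, with a mean between those of heat and of longevity or desiccation selected lines. Against control it was 0.53 ± 0.15 higher in longevity (adjusted p = 0.411), 0.44 ± 0.15 in cold (0.535) and in desiccation (0.532) and 0.35 ± 0.15 in constant 30 lines (adjusted p = 0.671), while heat selected lines differed by -0.27 ± 0.15 (adjusted p = 0.339). In longevity, cold, desiccation and constant 30 lines, each line was above each control line. None of these 5 differences passed the test. Knock-down (3.95, 4.51 and 4.38) and starvation (4.04, 4.39 and 4.53) overlapped with control, though their means were also above it. In the F test over all 8 groups Cyp4ac3 had the lowest p of the family (limma adjusted p = 0.111). Its chromosomal neighbour Cyp4ac1 ranged from 4.70 to 5.22 over all 24 arrays, with changes against control between -0.04 and 0.13 in the 7 regimes, and the other neighbour, Cyp4ac2, did not pass the filter.

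Cyp4e3, which is expressed in the Malpighian tubules and linked to permethrin tolerance, had the largest difference from control of any member. Its values were 6.72, 5.11 and 7.18 in control lines and 4.63, 4.42 and 4.49 in heat selected lines. The groups did not overlap, while the control lines themselves spanned 2.07. The difference was -1.82 ± 0.49 (95% interval -2.86 to -0.79) and missed the threshold (adjusted p = 0.0514). In cold selected lines Cyp4e3 stood at 5.09, 4.49 and 5.29, which overlapped with the low control line, and differed by -1.38 ± 0.49 (adjusted p = 0.535). The other 5 regimes had values from 4.59 to 6.80 and differences from -0.77 to -0.38, none called. Of its relatives, Cyp4e2 stayed between 10.50 and 10.82 and Cyp4e1 between 4.23 and 4.98 on the 24 arrays, with heat changes of -0.03 (Cyp4e2) and 0.21 (Cyp4e1). Cyp4e3 was called in heat under 3 other settings and in 5 of 24 omissions of a single array, as given in the closing section.

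**Figure D2:**
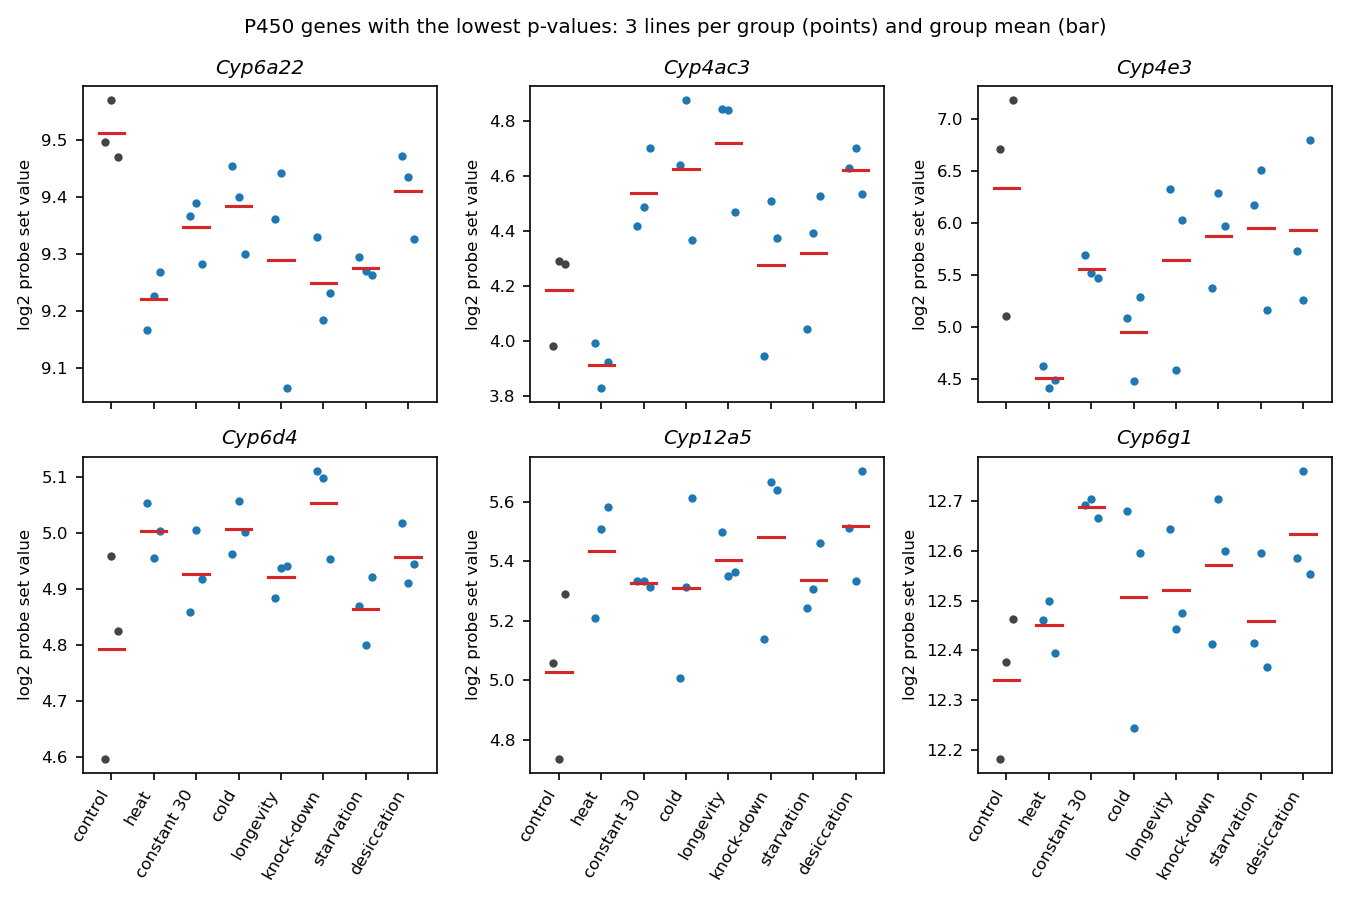
Log2 values of Cyp6a22, Cyp4ac3, Cyp4e3, Cyp6d4, Cyp12a5 and Cyp6g1 in each of the 24 lines, by group, with 1 point per line and a bar at the group mean. Panels have their own vertical ranges. Heat selected lines of Cyp6a22 (9.17 to 9.27) lie below the control lines (9.47 to 9.57), and the 3 control values of Cyp4e3 (5.11 to 7.18) spread more than those of any regime.

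Members with described tasks in the fly's own metabolism had no called difference in the main fit. Cyp4g1, the oenocyte enzyme that releases cuticular hydrocarbons from fatty aldehydes, stood at 13.98, 13.93 and 14.17 in control lines. In heat selected lines it was at 14.28, 14.25 and 14.12, overlapping with control, and differed by 0.19 ± 0.07 (95% interval 0.04 to 0.34, adjusted p = 0.130). In desiccation selected lines the values were 14.08, 14.10 and 14.12. They lay within the control range, with a difference of 0.07 ± 0.07 (95% interval -0.07 to 0.22). The other 5 regimes differed by 0.03 to 0.10. The oenocyte list given above moved with the heat comparison.

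Cyp4g15, a relative of Cyp4g1 known from the nervous system, stood at 4.73, 4.78 and 4.83 in control lines. Heat selected lines had 5.45, 5.04 and 4.86, all above control, and differed by 0.33 ± 0.13 (adjusted p = 0.160). Starvation selected lines had 4.94, 5.17 and 5.01, also all above control, with a difference of 0.26 ± 0.13 (adjusted p = 0.570). Cold selected lines (4.87, 4.91 and 4.85) lay just above control and differed by 0.09. None of these passed the test, and heat replicate 1 was the highest of all 24 lines.

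The 2 tested genes of the CYP2 clan are Cyp18a1, which inactivates ecdysteroids, and Cyp305a1. Cyp18a1 stood at 6.94, 7.14 and 7.27 in control lines and at 7.30, 7.43 and 7.36 in constant 30 lines. All constant 30 lines were above all control lines, by 0.25 ± 0.11 (adjusted p = 0.703). In heat selected lines it stood at 7.11, 6.92 and 6.88, overlapping with control, and the direct difference between heat and constant 30 was -0.39 ± 0.11 (adjusted p = 0.0770, where 0.366% of all probe sets were called). Cyp305a1 stood at 5.33, 5.47 and 5.30 in control lines. It was at 5.24, 4.87 and 5.10 in heat and at 5.02, 5.04 and 5.14 in longevity selected lines, below every control line in both. Both differences were -0.30 ± 0.14 (adjusted p = 0.244 in heat and 0.627 in longevity).

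**Figure D3:**
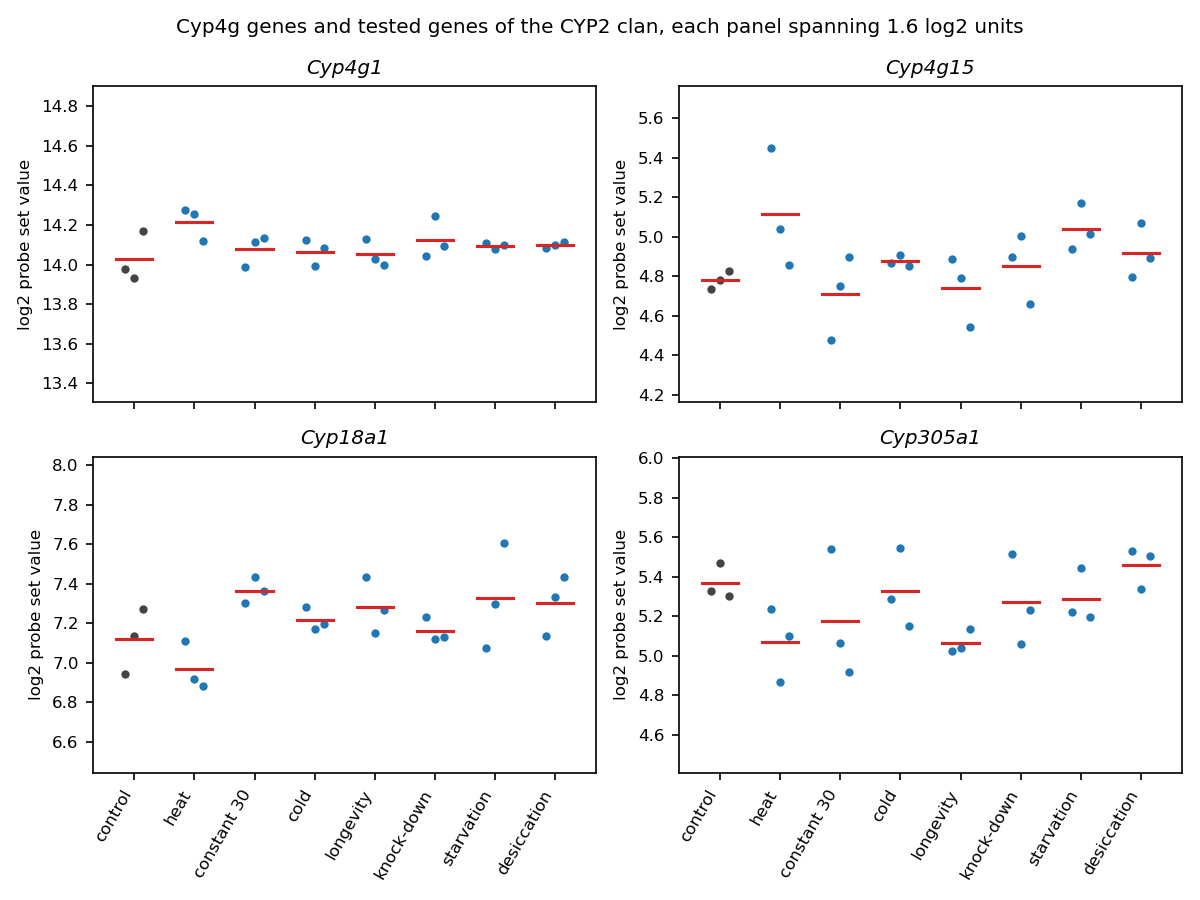
Log2 values of Cyp4g1, Cyp4g15, Cyp18a1 and Cyp305a1 in the 24 lines, by group, with 1 point per line and a bar at the group mean. Every panel spans the same number of log2 units. Constant 30 lines of Cyp18a1 (7.30 to 7.43) lie above the control lines (6.94 to 7.27), and Cyp4g1 stays between 13.93 and 14.28.

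Genes known from insecticide resistance were examined next. Cyp6g1, whose overexpression confers DDT resistance, stood at 12.18, 12.38 and 12.46 in control lines. Constant 30 lines had 12.69, 12.70 and 12.67, all above control, with a difference of 0.35 ± 0.10 (95% interval 0.13 to 0.57, adjusted p = 0.428). Desiccation selected lines had 12.59, 12.76 and 12.55, also all above control, with a difference of 0.29 ± 0.10 (adjusted p = 0.557). The other 5 regimes overlapped with control and differed by 0.11 to 0.23, and 20 of the 21 selected lines were above the control mean. The mean of the 7 regimes differed by 0.21 ± 0.08 (adjusted p = 0.325). None of these was called, and the neighbouring Cyp6g2 did not pass the filter. Cyp6t3, the next neighbour, was at 4.60, 4.65 and 4.52 in control and at 4.30, 4.44 and 4.39 in desiccation selected lines, without overlap and lower by a difference of -0.21 ± 0.09 (adjusted p = 0.629).

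Cyp6a2 and Cyp6a8, both inducible by phenobarbital, varied widely between lines. Cyp6a2 stood at 6.73, 4.82 and 7.63 in control lines and at 7.71, 8.03 and 6.85 in longevity selected lines. The groups overlapped and differed by 1.14 ± 0.48 (adjusted p = 0.594). Control replicate 2 was the lowest of all 24 lines, and the other lines ran from 6.35 to 8.03. Cyp6a8 stood at 5.32, 4.07 and 6.55 in control and at 6.39, 7.21 and 6.51 in desiccation selected lines, which overlapped. The difference was 1.39 ± 0.59 (95% interval 0.16 to 2.62, adjusted p = 0.664). Starvation selected lines had 5.85, 6.06 and 7.11, higher by 1.03 ± 0.59 (adjusted p = 0.592), and knock-down replicate 2 was nearly as low as control replicate 2, at 4.09.

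Cyp6w1, found at higher levels in DDT-resistant flies, ranged from 8.21 to 10.39 with no regime called. Its constant 30 lines alone spanned 10.03, 8.42 and 9.72, and its starvation lines 8.91, 9.62 and 10.39. The differences from control ran from -0.55 ± 0.40 in knock-down to 0.14 ± 0.40 in desiccation selected lines. Cyp6a9 stood at 6.91, 7.10 and 7.06 in control and at 6.33, 6.54 and 5.95 in heat selected lines, below every control line, with a difference of -0.75 ± 0.33 (adjusted p = 0.202). Cyp6d5, a xenobiotic-induced gene, ranged from 9.41 to 10.23 and Cyp28d1, induced by nicotine, from 7.46 to 8.60. Their differences from control ran from -0.34 to 0.11 for Cyp6d5 and from -0.13 to 0.10 for Cyp28d1, and none was called.

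Cyp9b2 is measured by 2 probe sets, of which 1 passed the filter and ranged from 8.28 to 9.02, with differences of 0.01 to 0.18. The other stayed between 3.71 and 4.07, so the deposited values of this gene differ by probe set. Cyp310a1, known from the wing disc, stayed between 4.19 and 4.53. Cyp4p1, named for its range of group means, stood at 7.05, 6.999 and 7.94 in control lines, at 6.61, 6.55 and 6.96 in constant 30 lines and at 7.51, 7.75 and 7.73 in cold selected lines. The constant 30 lines were below all control lines, by a difference of -0.62 ± 0.31 (adjusted p = 0.722), while the cold selected lines overlapped with control (0.33 ± 0.31).

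In the mitochondrial clan all tested members belong to the Cyp12 family. Cyp12a5 stood at 5.06, 4.74 and 5.29 in control lines and at 5.51, 5.33 and 5.70 in desiccation selected lines, all above control. The difference was 0.49 ± 0.16 (95% interval 0.16 to 0.82, adjusted p = 0.462). It also lay above all control lines in longevity (5.497, 5.35 and 5.36) and constant 30 lines (5.33, 5.33 and 5.31). In heat (5.21, 5.51 and 5.58) and knock-down selected lines (5.14, 5.67 and 5.64) it overlapped. Of the 21 selected lines 20 were above the control mean, and the mean of the 7 regimes differed by 0.37 ± 0.12 (adjusted p = 0.227). Control replicate 2 was again the lowest of the 24 lines.

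Cyp12b2 was above the control mean in all 21 selected lines, with 5.43, 5.51 and 5.79 in control, 5.93, 5.90 and 6.08 in cold, 6.17, 6.01 and 5.73 in heat and 5.74, 6.44 and 5.82 in knock-down selected lines. Cold selected lines were above all control lines, and the differences were 0.40 ± 0.16 in cold (adjusted p = 0.586), 0.40 ± 0.16 in heat (0.157) and 0.43 ± 0.16 in knock-down (adjusted p = 0.312). Cyp12a4, whose overexpression confers lufenuron resistance, stood at 8.07, 8.23 and 8.17 in control. It was higher without overlap in heat (8.39, 8.35 and 8.25) and knock-down selected lines (8.32, 8.59 and 8.34), by 0.17 ± 0.10 in heat (adjusted p = 0.349) and 0.26 ± 0.10 in knock-down (0.344). Constant 30 lines had 8.65, 8.16 and 8.36 and differed by 0.23 ± 0.10 (adjusted p = 0.671). Cyp12e1 ranged from 3.96 to 4.36, and its starvation lines (3.96, 4.01 and 4.09) lay below all control lines (4.36, 4.19 and 4.14) by a difference of -0.21 ± 0.10 (adjusted p = 0.536).

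Cyp12d1-d, of a gene pair known for induction by DDT and caffeine, is nearly identical to its copy Cyp12d1-p, so its values are uncertain as to which copy they come from. It stood at 10.14, 10.44 and 10.73 in control and at 9.81, 9.74 and 9.68 in knock-down selected lines. All knock-down lines were below all control lines, by a difference of -0.69 ± 0.26 (95% interval -1.24 to -0.14, adjusted p = 0.330). A probe set that names both copies, and so is not a member, stood at 9.28, 9.50 and 9.85 in control and at 9.34, 9.46 and 9.15 in knock-down selected lines, which overlapped. The probe sets thus differed in whether the groups were apart.

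Among members with low p but no described task, Cyp6d4 was above the control mean in all 21 selected lines. It stood at 4.60, 4.96 and 4.83 in control, at 5.11, 5.10 and 4.95 in knock-down and at 4.96, 5.06 and 5.00 in cold selected lines. The cold selected lines lay narrowly above all control lines and the knock-down selected lines overlapped with them, and the differences were 0.26 ± 0.07 in knock-down (adjusted p = 0.158) and 0.21 ± 0.07 in cold (adjusted p = 0.535) and in heat selected lines (0.113). Cyp6v1 stood at 8.36, 8.11 and 8.12 in control and at 7.90, 8.03 and 7.82 in longevity selected lines, all below control. The difference was -0.28 ± 0.09 (adjusted p = 0.453), and starvation selected lines (8.10, 8.02 and 7.88) were likewise below control, by -0.20 ± 0.09 (adjusted p = 0.521). Cyp6u1 stood at 7.63, 7.72 and 7.69 in control, at 7.44, 7.56 and 7.50 in heat and at 7.43, 7.50 and 7.57 in constant 30 lines. It lay below control in both, by -0.18 ± 0.08 in each (adjusted p = 0.176 in heat and 0.659 in constant 30).

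Counting members whose 3 values lay wholly above or below the 3 control values gave 7 in heat selected lines (11.9%, against 23.4% of all tested probe sets). The count was 9 in constant 30 lines (15.3% against 13.1%), 7 in cold (11.9% against 11.1%) and 8 in longevity selected lines (13.6% against 12.8%). It was 5 in knock-down (8.47% against 15%), 8 in starvation (13.6% against 15.4%) and 8 in desiccation selected lines (13.6% against 17%). The members' shares were thus near or under the background in each regime.

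The largest run of neighbouring P450 genes holds 9 genes, all tested: Cyp6a22, Cyp6a17, Cyp6a23, Cyp6a19, Cyp6a9, Cyp6a20, Cyp6a21, Cyp6a8 and Cyp317a1. Neighbours differed in how much they varied between lines. The residual SD, the spread of lines around their group mean, was 0.09 for Cyp6a22, 0.10 for Cyp6a19 and 0.12 for Cyp317a1, near or under the median of 0.12 over all tested probe sets. It was 0.45 for Cyp6a9, 0.79 for Cyp6a8 and 0.99 for Cyp6a17, which lies at percentile 99.8 of all tested probe sets. These genes are close relatives and shared hybridisation between their probe sets was not tested, so values of single genes of the run are uncertain.

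Cyp6a17, described as a gene of the mushroom bodies that affects temperature preference, is the member with the largest spread between lines of a group. In heat selected lines it stood at 3.56, 4.85 and 6.42, a range of 2.87, and in constant 30 lines at 6.48, 5.05 and 4.09. Control lines had 6.002, 6.26 and 4.13, cold selected lines 3.66, 4.44 and 5.38, and knock-down selected lines 4.14, 5.84 and 4.61. Low and high lines thus occurred within these 5 groups alike. Longevity selected lines (5.501, 5.40 and 6.40) were all in the upper part of the range, and desiccation selected lines (3.49, 4.77 and 3.76) and starvation selected lines (4.88, 3.41 and 4.71) in the lower part. Against control the differences ran from -1.46 ± 0.73 in desiccation (adjusted p = 0.698) to 0.30 ± 0.73 in longevity selected lines, and none was called.

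Cyp6a20, known for its effect on male aggression, stood at 6.21, 6.53 and 6.60 in control and at 7.02, 6.68 and 7.07 in starvation selected lines, all above control. The difference was 0.47 ± 0.20 (95% interval 0.07 to 0.88, adjusted p = 0.498). Desiccation selected lines (6.64, 6.72 and 6.85) were also all above control, by 0.29 ± 0.20. Cyp6a23, named here after its values were seen, stood at 6.98, 7.27 and 7.71 in control and at 7.91, 7.72 and 7.97 in desiccation selected lines, all above control, by 0.54 ± 0.24 (adjusted p = 0.688). In heat selected lines it stood at 7.21, 6.97 and 6.68, and the direct difference between heat and desiccation was -0.91 ± 0.24 (adjusted p = 0.0505). Cyp6a23 was called in this pair with a filter at 6 (limma adjusted p = 0.0446), array weights (0.0357), the replicate block (0.0411) and some omissions of an array. With no filter, quantile or median scaling or the RNA quality covariate it was not called.

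**Figure D4:**
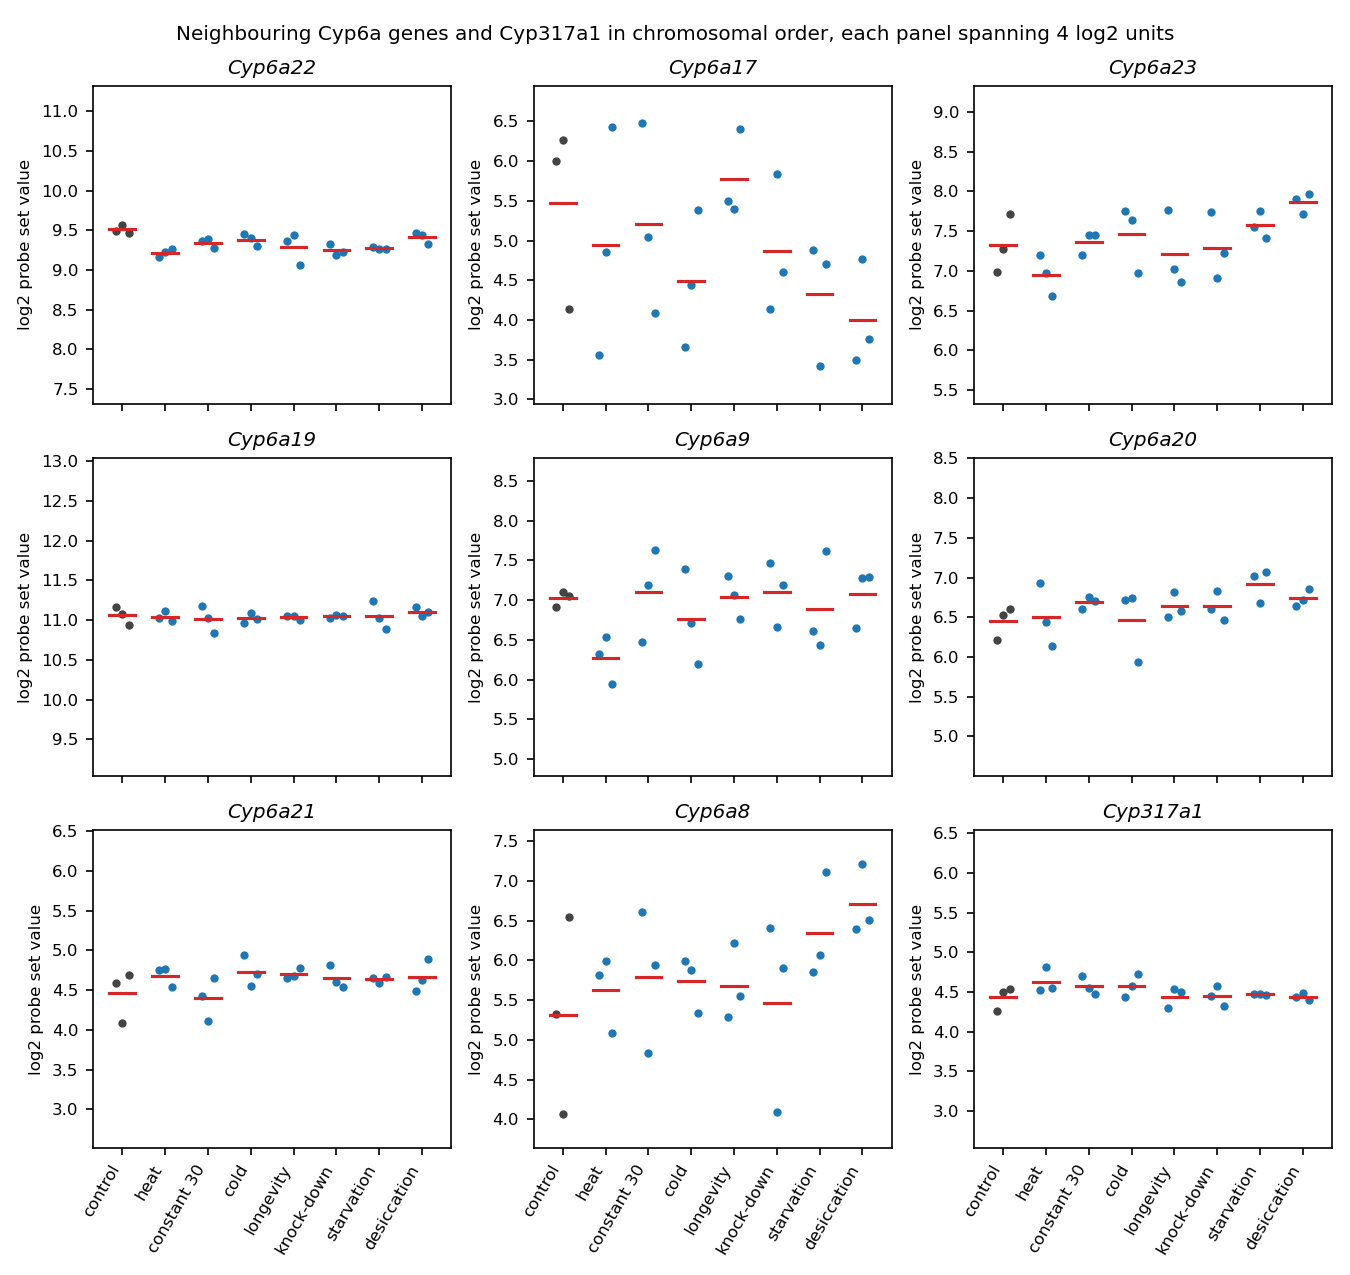
Log2 values of the 9 neighbouring genes Cyp6a22 to Cyp317a1 in chromosomal order, in the 24 lines by group, with 1 point per line and a bar at the group mean. All panels span the same number of log2 units, so the scatter of Cyp6a17 (residual SD 0.99) and Cyp6a8 (0.79) can be set beside the narrow bands of Cyp6a22 (0.09) and Cyp6a19 (0.10).

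Over the family, lines of a group differed more than is typical of the array. The median residual SD was 0.194 over the 59 P450 probe sets and 0.120 over all 9023. It exceeded 0.5 for 5 members (8.47%), Cyp6a17, Cyp6a8, Cyp4e3, Cyp6a2 and Cyp6w1, and for 121 of all probe sets (1.34%). A range over the 24 arrays above 2 was likewise found for 5 members (8.47%) and for 148 of all probe sets (1.64%). The share of the variance that lay between groups was similar, with a median of 33.7% for the members and 36.8% for all. These shares are a description, without a test. Steady members existed as well, such as Cyp4ae1, which ran from 5.18 to 5.48, and Cyp6a19, from 10.84 to 11.24. Cyp4ae1 is named here after its values were seen.

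**Figure D5:**
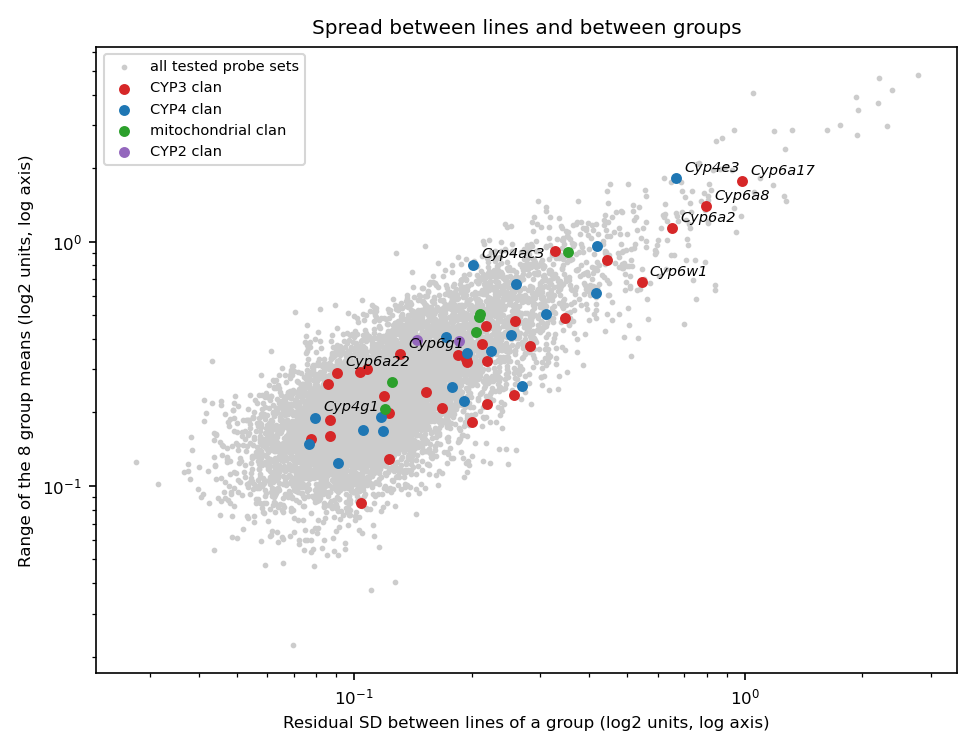
Residual SD (horizontal axis, log2 units) against the range of the 8 group means (vertical axis, log2 units) for all 9023 tested probe sets in grey and the 59 P450 probe sets in colour. Cyp6a17 and Cyp6a8 lie farthest to the right, at 0.99 and 0.79, and Cyp4e3 has the largest range of group means among the members, 1.82.

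Lines differed in how often they held the lowest value of a member. Control replicates 1 and 2 each held the lowest of the 24 values for 8 of 59 members (13.6%), against 6.10% and 5.39% of all tested probe sets, while control replicate 3 held it for none (1.71% of all). Heat selected replicates 2 and 3 held it for 6 members each (10.2%, against 11.3% and 2.24% of all), starvation selected replicate 1 for 5 (8.47% against 5.34%), and each of the other lines for 3 or fewer. Control replicate 2 was the lowest line for Cyp6a2, Cyp6a8 and Cyp12a5. It was also the lowest control line of Cyp4e3. Since every comparison with control uses these 3 lines, the differences of a member from control in several regimes do not count as separate evidence. Without control replicate 3, the high line, both probe sets of Cyp9f2 were called higher in heat selected lines, by 0.53 and 0.62. With all control lines the differences were 0.34 ± 0.14 and 0.38 ± 0.16 (adjusted p = 0.172 and 0.189). Cyp9f2 is named here after its values were seen.

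Genes that work with the P450s were read from lists of partner genes. Among redox partners Cyt-b5, Fdx1 and Fdx2 were tested (Cpr and dare had no probe set of their own here), and 0 of 3 were called in any regime. Cyt-b5, an electron donor to microsomal P450s, stood at 10.20, 10.49 and 10.60 in control and between 10.29 and 10.71 in the selected lines. Among regulators of detoxification genes 7 of 8 were tested (cnc, Keap1, maf-S, Hr96, tgo, Met and gce) and none was called. Their changes ran from -0.15 to 0.16 in the 7 regimes. The haem breakdown gene Ho had no probe set of its own here. Of 8 genes for haem breakdown and haem synthesis, which supplies the P450 cofactor, the 6 tested all act in synthesis. Of these 1 was called, in heat selected lines, where 2.84% of all probe sets were. This was Alas, which catalyses the first step of synthesis. It stood at 8.45, 8.46 and 8.49 in control and at 9.04, 9.34 and 8.76 in heat selected lines, all above control. It rose by 0.58 ± 0.14 (adjusted p = 0.0382). The tissue lists and RNA measure given for the heat comparison apply here too. Of 6 ecdysteroid-making P450s whose symbols do not start with Cyp, spo passed the filter, at 3.88 to 4.33 over all lines and with no call, while phtm, dib, sad and shd were present on the array but did not pass.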

How the data were processed

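Per the submitters' processing notes, the authors made the deposited log2 values with GCRMA, whose version and settings the sources used here do not give. No further normalization was applied. Gene names are those of the platform annotation, brought up to date through the Release 6 gene table, which also gave neighbouring genes. There were 0 other columns of per-sample values. All 24 arrays entered a single limma 3.58.1 fit in R 4.3.3 (lmFit with a mean for each group, then eBayes), and two-sided p-values were adjusted after Benjamini and Hochberg over the 9023 tested probe sets of a comparison. Calls needed an adjusted p under 0.05. The fit was tested on simulated data. Members and lists were chosen with earlier results of these data known. Genes were named by rule: any call, the 4 lowest p of each comparison with control, of the mean of the 7 regimes and of the F test, a listed known role, the 5 largest ranges between and within groups, or probe sets that differ in call. In family medians a gene's probe set with the highest mean stands for it. Alternatives were the unfiltered table, a filter at 6, quantile and median scaling, array weights, the replicate number as a block, an RNA quality covariate, joint adjustment of the 7 comparisons, fits of 2 groups alone and omission of each array.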

Additional observations from a re-analysis of the deposited data

Results flagged for a closer look

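Cyp4ac3 differed between regimes by a direct test in 2 of the 21 pairs. It was lower in heat selected than in longevity selected lines by a difference of -0.80 ± 0.15 on the log2 scale (limma adjusted p = 0.0180), in 3 of 3 heat lines against 3 of 3 longevity lines. It was also lower in heat selected than in desiccation selected lines, by a difference of -0.71 ± 0.15 (adjusted p = 0.0299), again without overlap. The heat values (3.83 to 3.99) lay under the filter of 4. The fat body and oenocyte lists were apart in both pairs. Muscle and RNA integrity were apart in the longevity pair alone, and the eye list in the desiccation pair alone. Their values are given beside the pairs in the report. With RNA quality as a covariate neither pair was called (adjusted p = 0.951 and 0.195). In the longevity pair that covariate cannot be told from the regime, as RNA integrity was apart there. The part of the tissue lists and of RNA integrity was not tested.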

How the results depend on the processing

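Under the alternatives run, no called change was reversed, and no member was called against control in constant 30, cold, starvation, longevity or desiccation selected lines. In heat selected against control, where 1 member was called, 0 were called with adjustment over the 7 comparisons together, with no filter, with RNA quality as a covariate and with the 2 groups alone, 2 with a filter at 6 and 2 with the replicate block. Leaving out 1 of the 24 arrays gave 0 to 4, with 0 in 15 omissions. It gave 0 without control replicate 1 or 2, heat selected replicate 1 or 2, any constant 30 or starvation selected line, cold or desiccation selected replicate 1 or 2, or knock-down selected replicate 3. It gave 1 in 4 omissions, 2 (Cyp6a22 and Cyp4e3) without cold selected replicate 3, longevity selected replicate 2 or knock-down selected replicate 2, 2 without heat selected replicate 3 (Cyp6a22, and Cyp4ad1, which is named after its values were seen) and 4 without control replicate 3 (Cyp6a22, Cyp4g1 and both probe sets of Cyp9f2). Without control replicate 3, 1 probe set of Cyp9f2 was also called in knock-down selected lines (0 to 1 over arrays left out) and in the mean of the 7 regimes (0 to 1). The F test called 1 member with array weights and 0 with any array left out. The 21 direct pairs, with 2 calls, had 4 with array weights, 9 with the replicate block, 0 with the covariate for RNA quality and 0 to 13 with arrays left out: 13 without heat selected replicate 3, 0 without heat selected replicate 2, 5 without cold selected replicate 3 or knock-down selected replicate 1 or 2, and 1 without any desiccation selected line. These calls, all in pairs with heat selected lines, were not of Cyp4ac3 alone. Without heat selected replicate 3 they included Cyp4ad1, Cyp6t3 and Cyp4g15. With a filter at 6 they were of Cyp6v1 and Cyp6a23. Array weights added Cyp18a1 and Cyp6a23. The replicate block added Cyp6v1, Cyp6a23, Cyp4ad1 and Cyp12c1, which is named after its values were seen.

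Cyp6a22 in heat kept its direction and lost its call with no filter (adjusted p = 0.0562), quantile normalization (0.0566), the covariate for RNA quality (0.292) and the 2 groups alone (0.196), and in 17 of 24 omissions of an array (0.0503 to 0.181). Cyp4e3 in heat was called with the filter at 6 (0.0454), with quantile normalization (0.0457) and with the replicate block (0.0382), and without cold selected replicate 3, longevity selected replicate 1 or 2, knock-down selected replicate 2 or desiccation selected replicate 3 (0.0428 to 0.0491). Cyp4ac3 lost both its calls with the covariate for RNA quality and without heat selected replicate 2, the longevity call also without longevity selected replicate 1 and the desiccation call without any desiccation selected line. It kept the first in 22 and the second in 20 of 24 omissions of an array, and has no value with the filter at 6. The family median was -0.032 in heat with a filter at 6 and 0.053 in longevity with quantile normalization. With arrays left out it ran from -0.018 to 0.058 in heat, 0.0052 to 0.096 in constant 30, -0.020 to 0.085 in cold, -0.0029 to 0.094 in longevity, -0.026 to 0.092 in knock-down, -0.023 to 0.054 in starvation and 0.016 to 0.113 in desiccation selected lines. The causes of these moves were not tested. Lines with the same replicate number deviated together by a median r of 0.07 (84 pairs, -0.35 to 0.56), against -0.02 for other pairs (168 pairs, -0.50 to 0.44). This difference was not tested, so it was not settled whether the numbers pair the lines. Calls under the block are given as an alternative only. The number of arrays limits what can be seen: the 95% interval in desiccation selected lines ran from -2.98 to 0.06 for Cyp6a17 and from -0.26 to 0.06 for Cyp6a22.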
